A study of Mus musculus with 8 samples.

Results

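A set of 9 usual markers of macrophage polarization was followed in bone marrow-derived macrophages (BMDMs): Nos2, Il6, Il12b and Cd38, which mark classically activated macrophages, and Chil3, Retnla, Mrc1, Mgl2 and Il10, which mark alternatively activated ones. They were chosen by name, and all 9 were found among the 23761 genes of the expression table. Levels are in FPKM, fragments scaled to transcript length and to the mapped fragments of a library. A comparison of levels between genes is per length and only as good as the assignment of reads to each gene. At a mean of at least 1 FPKM, 3 of the 9 were among the 10920 genes tested. RNA-sequencing of 4 LysM and 4 K2KO mice, 1 library each, addressed what myeloid deletion of Klf2, a zinc finger transcription factor, does to macrophage transcription. LysM mice are LysM Cre/Cre and K2KO mice are LysM Cre/Cre KLF2 flox/flox, so Cre recombinase sits at Lyz2, the lysozyme M gene, in both and no group is without Cre. That locus is active in macrophages, monocytes and neutrophils alike. All mice were 3 months old, and their marrow was grown in medium conditioned by L929 fibroblasts, the source of the growth factor CSF-1. The labels mark each library as "veh" without naming the vehicle, and no polarizing cytokine is named. Libraries are called LysM0 to LysM3 and K2KO0 to K2KO3 after the number that ends each column name. These numbers do not tie a column to 1 mouse.

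Classical activation is the response of macrophages to interferon-gamma and bacterial products. It induces Nos2, the nitric oxide synthase that uses arginine, together with inflammatory cytokines such as IL-6 and IL-12. Alternative activation is the response to IL-4 and IL-13 through STAT6, and it induces secreted lectins and lectin receptors. Il10 encodes an anti-inflammatory cytokine that macrophages release in either state, as a brake on cytokine production.

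Of the markers, Il10 alone passed the test, with a lower level in the libraries labelled K2KO. The classical markers were under 1 FPKM in all libraries of both genotypes. Nos2 varied far more among libraries of 1 genotype than between the genotypes. In the table of FPKM by library, Mrc1 had the highest mean over the 8 libraries at 31.7 FPKM, followed by Il10 at 21.8, Chil3 at 17.4 and Mgl2 at 0.642 FPKM. Nos2 followed at 0.242, Cd38 at 0.237, Il12b at 0.116, Il6 at 0.0906 and Retnla at 0.0384 FPKM. Chil3 was above Mgl2 in every library, with a lowest value of 12.2 against a highest of 0.760 FPKM. The other neighbours in this order overlapped in range, although within each of the 8 libraries Mrc1 was above Il10 and Mgl2 above Nos2. Of the rest, Il10 was above Chil3 in 6 libraries, Nos2 above Cd38 in 4, Cd38 above Il12b in 6, Il12b above Il6 in 4 and Il6 above Retnla in 5, so the order of those neighbours changed between libraries.

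**Figure D1:**
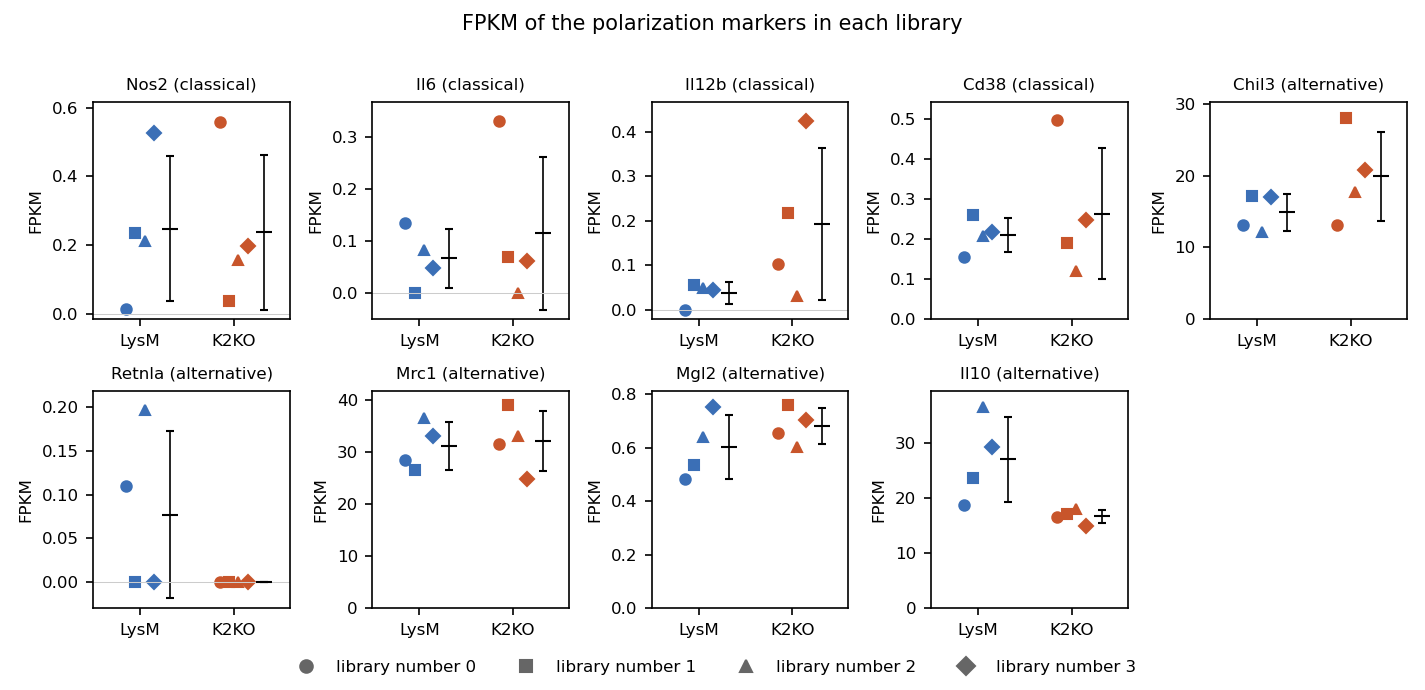
FPKM of each marker (vertical axis, linear, scaled for each panel) in the 4 LysM libraries (blue) and the 4 K2KO libraries (orange), with the mean and SD of each genotype in black. Il10 is the marker whose genotypes do not overlap, and the lowest Nos2 values of the genotypes come from LysM0 and K2KO1.

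Several properties of the libraries stood before the comparison. Klf2 itself was 58.7 ± 12.7 FPKM in LysM and 51.4 ± 9.22 FPKM in K2KO libraries (SD, n = 4 each). With a log2 fold change of -0.18 (SE 0.17, limma adjusted p = 0.460), it was not called lower, and its ranges, 44.1 to 72.8 and 41.6 to 59.3 FPKM, overlapped. Which bases the flox alleles remove is not given in the sources used here, and reads outside them would still count, so Klf2 does not check the genotype labels and directions are given for libraries as labelled. Lyz2, the gene that carries Cre in both groups, was 18.6 ± 2.88 against 13.2 ± 1.73 FPKM (log2 fold change -0.49, SE 0.12, limma adjusted p = 0.0260). All 10 macrophage markers examined passed the filter, as did 10 of 11 neutrophil and 4 of 5 monocyte markers, so passing does not by itself set the cell type. The summed level of the macrophage markers was 4771 to 5857 FPKM in LysM and 4628 to 4914 FPKM in K2KO libraries. Cd68, a lysosomal glycoprotein of macrophages, was the most abundant of them at 1807 FPKM, beside S100a9 at 129 FPKM as the most abundant neutrophil marker. FPKM do not show how many reads a value rests on. Gapdh, a gene that cells use for glycolysis, was listed at 0 to 0.4999 FPKM, so a value at or near 0 is given as listed and not as absence of a transcript.

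Il10 lies on chromosome 1 from 131019845 to 131024974 (GRCm38, plus strand). Its level was 18.6, 23.6, 36.4 and 29.2 FPKM in LysM0 to LysM3. The K2KO libraries had, in the same order, 16.5, 17.1, 17.9 and 15.0 FPKM. Each of the libraries labelled K2KO lay below all 4 LysM libraries, and the LysM libraries were the ones that spread widely. The means were 27.0 ± 7.64 and 16.6 ± 1.25 FPKM (SD, n = 4 each), 1.62-fold higher in LysM. The log2 fold change, on the log2(FPKM + 0.1) scale and given throughout as K2KO against LysM, was -0.65 (SE 0.18, 95% interval -1.05 to -0.25, limma adjusted p = 0.0333). The exact two-sided permutation test gave p = 0.0286, the smallest that 4 against 4 libraries allow.

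Il10 was thus the 1 marker of 3 tested that was called, at an adjusted p under 0.05 and a log2 fold change over 0.26 in size. Of all tested genes 18.4% were called by the same rule, 8.61% in the lower direction. Of the 9 markers Il10 was also the one with genotypes that did not overlap, which held for 23.1% of all tested genes. The Il10 call held without LysM0 and was lost with any other library left out. Without LysM0 the log2 fold change was -0.82 (limma adjusted p = 0.0116), but the adjusted p was 0.0672 without LysM1, 0.0622 without LysM2, 0.113 without LysM3, 0.0828 without K2KO0, 0.0774 without K2KO1, 0.0727 without K2KO2 and 0.0571 without K2KO3. The direction was the same each time, between -0.82 and -0.50. Summed macrophage markers, at 4771, 5539, 5857 and 5788 FPKM, followed the order of Il10 over LysM0 to LysM3, as did summed monocyte markers. In K2KO0 to K2KO3 the macrophage sum was 4634, 4628, 4854 and 4914 FPKM, highest in K2KO3, where Il10 was lowest. The part of these markers in the Il10 values was not tested.

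Chil3, a secreted chitinase-like lectin also called Ym1, lies on chromosome 3 from 106147554 to 106167564 (minus strand). It was 13.1, 17.2, 12.2 and 17.0 FPKM in LysM0 to LysM3. In K2KO0 to K2KO3 it was 13.2, 28.0, 17.7 and 20.8 FPKM. The genotypes overlapped, with the highest value in K2KO1 and the lowest in LysM2. The means were 14.9 ± 2.62 and 19.9 ± 6.25 FPKM, and the log2 fold change was 0.38 (SE 0.21, 95% interval -0.10 to 0.87, limma adjusted p = 0.215, exact permutation p = 0.143). Its near copy Chil4, 33.9 kb away, was listed at 0 in 7 libraries and at 0.0312 FPKM in K2KO3, and how reads shared by both were assigned is not given in the sources used here. Neutrophil markers summed to 214, 300, 261 and 351 FPKM in LysM0 to LysM3 and to 213, 323, 262 and 342 FPKM in K2KO0 to K2KO3. K2KO1 was highest for 3 of the 11, S100a8, Ngp and Mpo, and LysM3 for 4, S100a9, Ly6g, Camp and Retnlg. K2KO3 was highest for 2, Ltf and Elane, while Prtn3 was highest in LysM0 and Csf3r in K2KO0. The part of neutrophil markers in the Chil3 values was not tested.

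Mrc1, the mannose receptor CD206, lies on chromosome 2 from 14229392 to 14332057 (plus strand). It was 28.6, 26.5, 36.7 and 33.1 FPKM in LysM0 to LysM3. The K2KO libraries had, in the same order, 31.5, 39.1, 33.1 and 24.9 FPKM. The lowest and the highest of the 8 values were both from K2KO libraries. The means were 31.2 ± 4.57 and 32.1 ± 5.84 FPKM, and the log2 fold change was 0.03 (SE 0.14, limma adjusted p = 0.879, exact permutation p = 0.8). The 95% interval of -0.29 to 0.36 was the narrowest among the 3 tested markers. The sign was not stable, as correcting for the GC content and length of transcripts gave -0.15.

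Mgl2, a galactose-binding lectin receptor (CD301b), lies on chromosome 11 from 70130329 to 70137550 (plus strand). It was 0.482, 0.536, 0.641 and 0.752 FPKM in LysM0 to LysM3. Its K2KO values, from K2KO0 on, were 0.657, 0.760, 0.603 and 0.705 FPKM. On the log2 scale Mgl2 had the smallest spread within genotypes among the markers under 1 FPKM, and the genotypes overlapped (log2 difference 0.16, exact permutation p = 0.286). Mgl2 kept this direction, at 0.078 without LysM0, 0.26 without LysM3 and 0.071 with a pseudocount of 1. Its relative Clec10a, 18.6 kb away, was more abundant, at 28.8, 44.0, 75.8 and 76.7 FPKM in LysM0 to LysM3 and 27.1 to 31.0 FPKM in the K2KO libraries. The 2 genes encode similar receptors, so reads could be split between them. Clec10a was not called, with a log2 fold change of -0.85 (SE 0.28, limma adjusted p = 0.0585), and LysM0 lay inside the K2KO range.

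Retnla, the secreted resistin-like protein also called Fizz1 or RELM-alpha, lies on chromosome 16 from 48842551 to 48844461 (plus strand). It was listed at 0.110 FPKM in LysM0 and 0.197 FPKM in LysM2 and at 0 in the other 6 libraries, including all 4 labelled K2KO. No fold is given for a gene at 0 in 1 group, and the exact permutation p was 0.429. The related Retnlg, a gene of neutrophils, was 1.35 to 7.82 FPKM in LysM and 2.60 to 5.12 FPKM in K2KO libraries.

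Promoter sequence was at hand for 7 of the 9 markers, among them Chil3, which was abundant, and Retnla, which was mostly listed at 0. Both are known targets of IL-4 and STAT6. Bases before the RefSeq gene start on GRCm38.p6 are shown for these 2, at chr3:106167565-106167814 (minus strand) and chr16:48842359-48842550 (plus strand, up to where the table's Retnla locus begins). Capitals mark matches to TTCNNNNGAA, the spacing that STAT6 prefers, or to TTCNNNGAA, the spacing used by other STAT factors.
Chil3: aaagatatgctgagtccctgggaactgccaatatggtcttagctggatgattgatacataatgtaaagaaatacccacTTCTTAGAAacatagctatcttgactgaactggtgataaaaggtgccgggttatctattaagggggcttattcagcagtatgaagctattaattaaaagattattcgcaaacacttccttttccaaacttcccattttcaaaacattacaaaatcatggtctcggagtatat
Retnla: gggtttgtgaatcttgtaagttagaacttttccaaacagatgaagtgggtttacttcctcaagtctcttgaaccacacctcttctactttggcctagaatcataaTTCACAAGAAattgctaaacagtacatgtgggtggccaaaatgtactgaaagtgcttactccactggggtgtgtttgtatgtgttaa

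Both motifs read the same on either strand. In the 250 bases before the gene start, Retnla held TTCNNNNGAA from 145 to 136 bases before it, and Chil3 held TTCNNNGAA from 172 to 164 bases before it. Of 32851 promoter windows of that length, 5.85% held the first motif and 7.02% the second. Il6, Il12b, Cd38, Mrc1 and Mgl2 held neither in this window. For Cd38 the window, 43868559 to 43868808 on chromosome 5, lay wholly inside the Cd38 locus, which begins at 43868553. For Mrc1 and Mgl2 it reached 22 and 28 bases into the locus. These are letter matches and say nothing of binding in these cells.

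Nos2, the inducible nitric oxide synthase, lies on chromosome 11 from 78920787 to 78960254 (plus strand). It was 0.0131, 0.236, 0.212 and 0.527 FPKM in LysM0 to LysM3. In K2KO0 to K2KO3 it was 0.559, 0.0353, 0.156 and 0.198 FPKM. All values were under 1 FPKM, and LysM0 and K2KO1 were the lowest library of their genotype. The means were 0.247 ± 0.212 and 0.237 ± 0.226 FPKM, with a log2 difference of -0.03 (exact permutation p = 0.943). Its sign and size changed with the libraries used, from -0.49 without LysM0 and -0.43 without K2KO0 to 0.33 without LysM3 or K2KO1.

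Il12b encodes the p40 subunit shared by IL-12 and IL-23 and lies on chromosome 11 from 44400063 to 44414033 (plus strand). It was 0, 0.0558, 0.0487 and 0.0453 FPKM in LysM0 to LysM3. The K2KO libraries had, in the same order, 0.103, 0.217, 0.0305 and 0.424 FPKM. In 3 of the 4 libraries labelled K2KO it was above all LysM libraries, while K2KO2 lay inside the LysM range. The means were 0.0374 ± 0.0253 and 0.194 ± 0.172 FPKM, and the log2 difference of 0.93 did not pass (exact permutation p = 0.114; limma adjusted p = 0.188 with genes of at least 0.1 FPKM and 0.208 with no filter). The log2 difference depended on the pseudocount, at 0.19 with 1 and 1.93 with 0.01, and was 0.59 without K2KO3. K2KO3, the library with the most Il12b, was also highest for 5 of 9 dendritic cell markers (Flt3, Cd209a, Clec9a, Siglech and Ccr7) and lowest for 2 others, Itgax and Dcstamp. The summed level of that list, 10.04 FPKM in K2KO3, lay within the 8.29 to 12.1 FPKM of all libraries. Itgax was its most abundant gene at 4.91 FPKM, and Zbtb46 and Xcr1 were under 0.1 FPKM. Of 9 T and NK cell markers listed above 0, K2KO3 was highest for 5 (Cd3e, Cd3d, Cd8a, Nkg7 and Ifng) and lowest for 0. All of these 5 but Nkg7 had means under 0.1 FPKM, and the list summed to 6.55 FPKM in K2KO3 and 6.74 FPKM in K2KO2. The part of either list in the Il12b values was not tested, and in bulk RNA fewer cells of a type and less RNA per cell cannot be told apart.

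Il6, the acute inflammatory cytokine, lies on chromosome 5 from 30013114 to 30019981 (plus strand). It was 0.134, 0, 0.0824 and 0.0484 FPKM in LysM0 to LysM3. Its K2KO values, from K2KO0 on, were 0.332, 0.0684, 0 and 0.0602 FPKM. Each genotype had 1 library listed at 0, and K2KO0 stood above the rest (means 0.0661 ± 0.0564 and 0.115 ± 0.148 FPKM, log2 difference 0.22, exact permutation p = 0.743). The difference was -0.19 without K2KO0 and -0.0019 without LysM1, so its direction rested on these libraries. K2KO0 was also highest for 6 of 7 fibroblast and stroma markers, which summed to 3.42 FPKM there and to 0.258 to 2.01 FPKM elsewhere. All 7 had means under 1 FPKM, Dcn was the most abundant at 0.481 FPKM, and Lum and Pdgfra were under 0.1 FPKM. Their part in the Il6 value was not tested.

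Cd38, the surface enzyme that consumes NAD, lies on chromosome 5 from 43868553 to 43912375 (plus strand). It was 0.155, 0.259, 0.208 and 0.217 FPKM in LysM0 to LysM3. In K2KO0 to K2KO3 it was 0.496, 0.191, 0.120 and 0.247 FPKM. K2KO0 was again the highest library, and the lowest was K2KO2, so the K2KO libraries enclosed the LysM range (log2 difference 0.14, exact permutation p = 0.771). That difference turned to -0.13 without K2KO0 and reached 0.35 without K2KO2. With genes of at least 0.1 FPKM tested, 0 of the 3 classical markers measured there were called by limma and 0 had an unadjusted p under 0.05. With no filter 0 of 4 were called and Il12b had an unadjusted p of 0.0483. At these settings 12.7% and 5.13% of all tested genes were called. Summed, the 4 classical markers were 0.302 to 0.838 FPKM in LysM and 0.306 to 1.49 FPKM in K2KO libraries, against 60.9 to 86.2 and 61.4 to 85.0 FPKM for the 5 alternative markers.

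**Figure D2:**
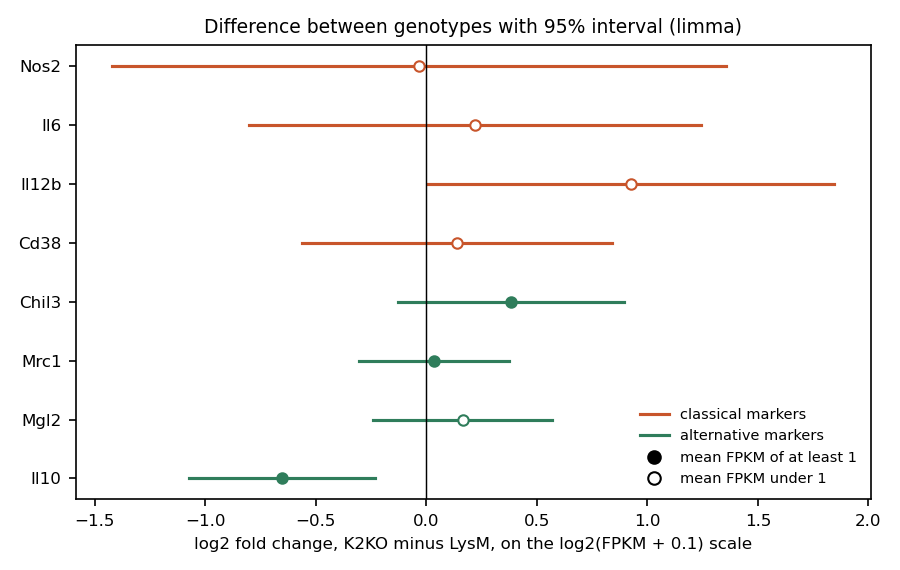
Log2 fold change of 8 markers, Retnla being left out as it is at 0 in all K2KO libraries (horizontal axis, K2KO against LysM on the log2(FPKM + 0.1) scale) with its 95% interval from limma run with no filter on low values; filled points have a mean of at least 1 FPKM. Nos2 has the widest interval, and those of Il10 and Il12b are the only ones that leave out 0, though neither has an adjusted p under 0.05 in this unfiltered run (0.0741 and 0.208).

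Within genotypes, the markers differed in how far their libraries spread. As deviations from the genotype mean on the log2 scale, Nos2 ranged from -1.38 in LysM0 to 1.2 in K2KO0. Il10 stayed within -0.49 and 0.48, Mrc1 within -0.35 and 0.30, and Mgl2 within -0.26 and 0.29. LysM0 and K2KO1, the lowest libraries for Nos2, shared this with 1425 of the 10920 tested genes, or 13%. Monocyte markers were also lowest there, summing to 22.3, 47.0, 50.6 and 49.5 FPKM in LysM0 to LysM3 and to 42.9, 21.8, 37.2 and 39.2 FPKM in K2KO0 to K2KO3. LysM0 was the lowest LysM library for 5 of the 5 monocyte markers and K2KO1 the lowest K2KO library for 3. The most abundant was Ccr2, the receptor of monocyte chemokines, at 18.7 FPKM, and none of the 5 was under 0.1 FPKM. Their part in the Nos2 values was not tested. Relative depth, read from the steps between the lowest FPKM, was 1.00 in LysM0 and 1.34 in K2KO1, and the part of depth in the Nos2 values was not tested.

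**Figure D3:**
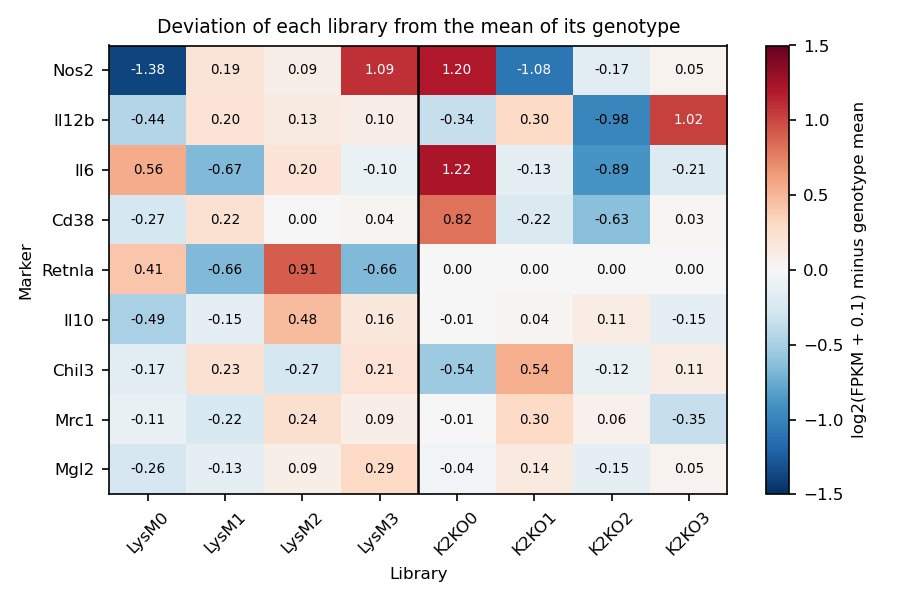
Deviation of log2(FPKM + 0.1) of each marker (rows) in each library (columns) from the mean of its genotype, with red above and blue below that mean. LysM0 and K2KO1 are blue for Nos2 (-1.38 and -1.08), whereas Mrc1 and Mgl2 stay pale across all 8 libraries.

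For each marker of at least 1 FPKM, the 3 tested genes most like it were found by the correlation of these deviations over the 8 libraries, a description that picks the best of 10920 genes and shares the libraries' depth and composition. Il10 was most like Cdyl2 (r = 0.996), Rbm5 (r = 0.983) and the proteoglycan Sdc4 (r = 0.980). Mrc1 was most like Rassf4 (r = 0.995), Cdc42se2 (r = 0.988) and Enox2 (r = 0.982), and Chil3 was most like Gm29216 (r = 0.976), Ighg2b (r = 0.97) and the kinase Eef2k (r = 0.969).

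The pathways on either side of the markers were read from 6 lists with 126 genes in the table, of which 94 were tested and 18 were called. In the libraries labelled K2KO, 8 of them were higher and 10 lower. This share of 19.1% was close to the 18.4% of all tested genes, of which 9.84% were called higher and 8.61% lower. That balance turned with the scaling, at 946 higher and 1105 lower genes with upper quartile scaling and 485 and 613 once GC content and length were corrected for. The median log2 fold change of all tested genes was 0.01. By list, the share called ran from 11.8% to 33.3%.

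Upstream of classical activation, 3 of 20 receptors and factors for interferon-gamma, LPS and GM-CSF rose and none fell, with a list median of 0.01. With 1 library left out, 2 were called higher and 1 lower without LysM2, and 6 higher and 1 lower without K2KO3. Csf2rb, the signalling chain of the GM-CSF receptor, rose from 41.4 ± 7.58 to 68.8 ± 7.22 FPKM (log2 fold change 0.74, limma adjusted p = 0.0120). Hif1a, the oxygen-sensitive factor that acts on Nos2 and on glycolytic genes, rose from 7.5 ± 0.333 to 11.3 ± 1.21 FPKM (log2 fold change 0.58, limma adjusted p = 0.00630), which shrank to 0.37 after correction for GC content and length (limma adjusted p = 0.0231). Jak2, a kinase of these receptors, rose by 0.38 in log2 units (limma adjusted p = 0.0241). That call was lost at 0.28 after quantile normalization (limma adjusted p = 0.0508) and at 0.22 after correction for GC content and length (0.0989). With no filter it was lost at the same fold (0.0547). Irf5 had an adjusted p of 0.0252 by limma but a log2 fold change of -0.23, below the size threshold, and Csf2ra had -0.07 (limma adjusted p = 0.708).

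Upstream of alternative activation, 1 of 17 tested receptors and factors for IL-4 and IL-13 rose and 2 fell, with a median of -0.03. Klf4, a relative of Klf2 that promotes alternative activation, rose from 15.1 ± 1.32 to 20.2 ± 3.31 FPKM (log2 fold change 0.41, limma adjusted p = 0.0366). The Klf4 call was lost at the same fold with no filter (limma adjusted p = 0.0766) and with a block on column number (0.0791). It held in 2 of the 8 runs with 1 library left out. Ptpn6, a phosphatase that dampens cytokine receptors, fell by 0.30 and Il2rg, the common gamma chain, by 0.29 in log2 units (limma adjusted p = 0.0311 and 0.0297), and both calls were lost after quantile normalization (-0.17 and -0.20). After correction for GC content and length Ptpn6 was at -0.21 (limma adjusted p = 0.124), while Il2rg at -0.25 kept an adjusted p of 0.0445 by limma and missed only the size threshold. Stat6, the factor through which IL-4 acts, was 60.2 ± 1.02 and 60.1 ± 2.29 FPKM (log2 fold change -0.00, limma adjusted p = 0.968). Cebpb, a factor of myeloid differentiation, was 437 ± 46.7 and 334 ± 114 FPKM (limma adjusted p = 0.138).

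Among other genes of classical activation, 1 of 17 tested rose and 1 fell, with a median of 0.41 and 9 of the 17 above 0. Cd274, which encodes the checkpoint ligand PD-L1 and lies 54.4 kb from Jak2 on chromosome 19, rose from 14.2 ± 1.41 to 21.7 ± 1.90 FPKM (log2 fold change 0.61, limma adjusted p = 0.00698). Fpr2, a formyl peptide receptor often paired with Cd38 as a classical marker, fell from 9.25 ± 3.01 to 4.25 ± 1.07 FPKM (log2 fold change -1.08, limma adjusted p = 0.0189). Irf7 and the chemokine Ccl5 did not pass, at -0.12 and 0.75 (limma adjusted p = 0.778 and 0.169). Among other genes of alternative activation, 1 of 11 tested rose and 1 fell, with a median of 0.19. Folr2, a folate receptor of tissue macrophages, fell from 559 ± 43.5 to 322 ± 43.5 FPKM (log2 fold change -0.80, limma adjusted p = 0.00428). Msr1, a scavenger receptor, rose by 0.32 in log2 units (limma adjusted p = 0.0208), a call lost after correction for GC content and length. Cd36 and Stab1 did not pass, at 0.46 and -0.17 (limma adjusted p = 0.142 and 0.0918).

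Around the substrates of Nos2 and Cd38, 1 of 17 tested genes of arginine and NAD metabolism rose and 2 fell, with a median of -0.05. All 3 belong to NAD metabolism. Bst1, a relative of Cd38 that lies 24.6 kb from it on chromosome 5, fell from 3.66 ± 1.09 to 1.5 ± 0.220 FPKM (log2 fold change -1.19, limma adjusted p = 0.0120). Nampt, the salvage enzyme that rebuilds NAD from nicotinamide, rose from 22.9 ± 0.921 to 31.9 ± 2.53 FPKM (log2 fold change 0.47, limma adjusted p = 0.00698). After correction for GC content and length this was 0.26 (limma adjusted p = 0.0483), barely past both thresholds. Naprt, which makes NAD from nicotinic acid, fell by 0.38 in log2 units (limma adjusted p = 0.0159), a call lost after correction for GC content and length. Odc1, the ornithine decarboxylase of polyamine synthesis, was 47.0 ± 3.37 and 32.3 ± 18.0 FPKM (limma adjusted p = 0.211), and Spr, which makes a cofactor of Nos2, had a log2 fold change of -0.26 below the size threshold (limma adjusted p = 0.0316). Spr was called with upper quartile scaling (-0.28, limma adjusted p = 0.0258) and after correction for GC content and length (-0.27, 0.0325). It was also called in 3 of the runs with 1 library left out.

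Around the cytokines themselves, 2 of 18 tested receptors and regulators of IL-6, IL-10 and IL-12 rose and 4 fell, with a median of -0.09. The share called was 33.3%, against 18.4% of all tested genes. These 6 calls fell to 1 without LysM2, LysM3 or K2KO2, to 2 without LysM1 or K2KO1, to 3 without K2KO0 and to 1 with no filter. Il10ra, the ligand-binding chain of the IL-10 receptor, fell with its ligand in the libraries labelled K2KO. It was 69.1, 74.8, 82.4 and 84.8 FPKM in LysM0 to LysM3 and 57.2, 55.4, 54.2 and 50.6 FPKM in K2KO0 to K2KO3. The genotypes did not overlap, and the log2 fold change was -0.51 (SE 0.08, limma adjusted p = 0.00825). Its partner Il10rb was 175 ± 4.72 and 183 ± 5.39 FPKM and did not pass (limma adjusted p = 0.407). Cebpd, a factor of the acute phase response, fell from 3.95 ± 0.771 to 2.56 ± 0.314 FPKM (log2 fold change -0.59, limma adjusted p = 0.0250). Zfp36, a protein that destabilizes cytokine mRNA, fell by 0.42 in log2 units (limma adjusted p = 0.0292), a call lost after quantile normalization (-0.23, adjusted p = 0.217) and, at -0.37, after correction for GC content and length (adjusted p = 0.0632). With no filter the fold was the same and the adjusted p by limma 0.0696. The other called genes were Bcl3, Tnfaip3 and Jak2, which is also counted among the inputs of classical activation. Atf3, a repressor of cytokine genes, had a log2 fold change of 0.03 (limma adjusted p = 0.783).

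**Figure D4:**
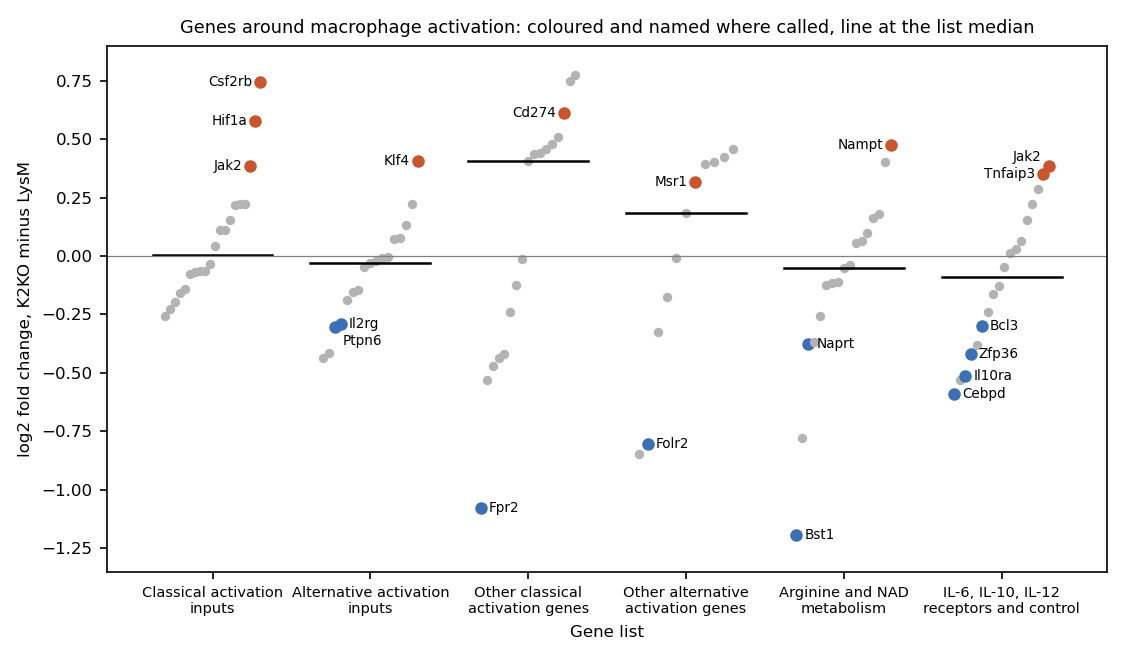
Log2 fold change (vertical axis, K2KO against LysM) of each tested gene in the 6 lists around the markers; called genes are named and coloured orange where higher and blue where lower, and the black line is the median of the list. Calls lie on both sides of 0 in 5 of the 6 lists, the exception being the inputs of classical activation, where all 3 are higher.

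Of the calls named from these lists, those of Hif1a, Cd274, Folr2, Nampt and Il10ra held with each of the 8 libraries left out in turn. Csf2rb and Bst1 were called in 7 of the 8 runs, Naprt in 6, Fpr2 and Msr1 in 5, Ptpn6 and Cebpd in 4, Il2rg and Zfp36 in 3, and Jak2 and Klf4 in 2. The count of calls in a list moved too, with the inputs of classical activation at 1 without LysM3 and 7 without K2KO3. The inputs of alternative activation had 0 without LysM2, LysM3 or K2KO2 and 1 without LysM1 or K2KO0, and also 0 with no filter and 1 after quantile normalization or the GC and length correction. The other classical genes ranged from 1 (without LysM3, K2KO1 or K2KO2) to 4 (without LysM0), the other alternative genes from 1 (without LysM3, K2KO0 or K2KO2) to 3, and arginine and NAD metabolism from 1 (without LysM3) to 5 (without K2KO3).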

How the data were processed

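The markers and gene lists were chosen with earlier results of these data known, and 1 other marker is not reported here. The authors deposited 1 table of FPKM, 1 column per library with no pooling. The study's methods name TopHat2 and Cufflinks on mm10, the submitters' processing notes name STAR, Cufflinks and Cuffdiff, and versions, annotation and the filter on listed genes are not given in the sources used here. The labels and the methods also name different RNA kits. Each of the 8 columns names a genotype but no single mouse. Genes were matched to GENCODE M21 by Ensembl identifier (23645 of 23761).

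log2(FPKM + 0.1) was compared for 10920 genes, those whose FPKM averaged 1 or more, by limma 3.58.1 in R 4.3.3 (lmFit, eBayes with an intensity trend, no covariate), with Benjamini-Hochberg adjustment over all tested genes. A call needed an adjusted p below 0.05 and a log2 fold change beyond 0.26 in size, as in the study. Single genes were also compared by exact two-sided permutation (35 splits, scipy 1.17.1). FPKM hold no counts, so no counting interval or detection limit is given. The summed FPKM was 497253 to 551608 in LysM and 448235 to 501965 in K2KO libraries, and relative depth was 0.969 to 1.24 and 0.898 to 1.34 (exact permutation p = 0.714). The fit was tested on simulated data with independent noise for each gene, in which 200 of 10812 genes were shifted by 1 in log2 units. It recovered 89% of these, with 6 false calls among 184. Smaller changes and shifts shared by the genes of a library were not simulated.

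Named genes were the 9 markers, up to 4 called genes with the largest change and up to 2 abundant genes not called from each list, paralogs, Klf2, Lyz2 and, for the cell type lists, the most abundant gene. Gapdh, Bcl3, Tnfaip3 and called or singled-out cell type markers were named after their values were seen. Alternatives were another pseudocount (1 or 0.01) or filter (0.1 or none), quantile or upper-quartile scaling, no trend, a correction for GC content and length (local regression, span 0.3), a block on column number, and each library left out.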

Additional observations from a re-analysis of the deposited data

How the results depend on the processing

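Il10 kept its direction in all 18 alternatives (log2 fold change -0.82 to -0.50) and its call in 8 of the 10 that keep all libraries. Its adjusted p was 0.0741 with no filter and 0.0513 with the block and the GC and length correction together, and the number of markers called was then 0. With 1 library left out, 0 to 1 markers were called, 1 without LysM0 and 0 without each of the others. Mrc1 reversed to -0.15 with the GC and length correction, with or without the block, and ranged from -0.065 to 0.15 with 1 library left out, below 0 without LysM0 (-0.0032), LysM1 (-0.04) or K2KO1 (-0.065). Chil3 was above 0 in all 18 alternatives (0.20 to 0.56). Its lowest adjusted p by limma, 0.0652, came with the block on column number, where its SE was 0.117 against 0.214 without the block.

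Of all tested genes, 2014 were called, against 1090 with no filter, 1098 with the GC and length correction and 868 with that correction and the block. The count was 337 without LysM3 and 2837 without K2KO3, the range with 1 library left out, and also fell by over 1.5 times without LysM1 (736), LysM2 (1030), K2KO0 (706), K2KO1 (726) or K2KO2 (496). Of the genes in the lists, 18 were called, 11 with no filter, 6 with the correction and the block, and 5 (without LysM3) to 26 (without K2KO3) with 1 library left out, and 7 without K2KO2. The cause was not tested. Correlations of deviations showed no pairing by column number. They were -0.07 to 0.07 for libraries with the same number, and 2 of 8 libraries were closest to their own number. Such correlations cannot tell whether libraries of the same number were handled together. With the replicate block 2057 genes and 15 of the list genes were called, with 1 instead of 3 among the inputs of alternative activation as Klf4 (limma adjusted p = 0.0791) and Ptpn6 (0.0561) were lost and 0 with the correction too, with the calls of Zfp36 (0.0547) and Jak2 (0.0531) lost at the same fold, and Il10 had a log2 fold change of -0.65 (limma adjusted p = 0.0340). Markers under 1 FPKM could not be followed at a known depth.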

Other observations

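Of 22 tested markers of cell types other than macrophages, 4 were called, or 18.2%, against 18.4% of all tested genes. Cd4, a T cell coreceptor that myeloid cells can also express, was 1.92 ± 0.3 FPKM in LysM and 5.15 ± 0.473 FPKM in those labelled K2KO (log2 fold change 1.38, limma adjusted p = 0.000434), and it carried most of the T and NK cell list, which summed to 2.12 to 3.30 and 5.98 to 6.74 FPKM. Cd3e, Cd3d, Cd3g, Cd8a, Ncr1, Ifng and Il13 of the same list had means under 0.1 FPKM. Cx3cr1, the fractalkine receptor, fell by 1.09 and Camp, a neutrophil granule peptide, by 1.14 in log2 units (limma adjusted p = 0.0239 and 0.0178), while the summed neutrophil list, led by S100a9, was 214 to 351 and 213 to 342 FPKM. The eosinophil receptor Ccr3 rose by 0.52 in log2 units (limma adjusted p = 0.0296). Of the 10 macrophage markers, Mertk, a receptor for apoptotic cells, rose by 0.36 in log2 units (limma adjusted p = 0.0285) and Lyz2 was the other one called.

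The other lists were low in both genotypes. The eosinophil list summed to 6.60 to 9.92 FPKM in LysM and 6.49 to 8.87 FPKM in K2KO libraries (most abundant Prg2, with Epx and Il5ra under 0.1 FPKM). The B cell list, led by Cd79b, summed to 1.53 to 4.88 and 3.55 to 5.44 FPKM, with Ms4a1 under 0.1 FPKM. The basophil and mast cell list summed to 0.432 to 0.934 and 0.817 to 1.66 FPKM, and the erythroid list to 0 to 1.10 and 0.536 to 1.46 FPKM. Il4, the inducer of alternative activation, was listed at 0 to 0.0945 FPKM in LysM and 0 to 0.168 FPKM in K2KO libraries.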
